A study of Mus musculus with 12 samples.

Results

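NK-type receptors and cytotoxic lineage genes are described here in mouse T cells that shared a culture with another cell. The 8 genes were chosen by symbol as a set of natural killer (NK) type surface receptors (Klrg1, Klrb1c, Klrd1, Klrk1, Klrc1 and Ncr1) and cytotoxic granule genes (Nkg7 and Ctsw). All 8 of 8 symbols were found among 53762 in the gene count table, and all 8 were among the 16945 genes with enough counts to be tested. The RNA came from spleen T cells co-cultured with partner cells that the labels name Res_ctrl or Res_shFabp7. In the second kind a short hairpin RNA (shRNA) targets Fabp7, a fatty acid binding protein. Co-culture lasted 24 h or 48 h, which gives 4 groups of 3 libraries and 12 libraries in all. All 4 groups held a partner cell, and T cells cultured alone were not analysed here. What Res stands for, the mouse strain and age, any stimulation of the T cells, the number of hairpins or clones, and the way the T cells were recovered from the co-culture are not given in the sources used here. Replicates carry numbers in the labels, with no word on separate cultures or mice. Every p-value here therefore speaks only of the scatter among these libraries, which may be technical.

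Several of these receptors are encoded in the NK gene complex and are lectin-like proteins best known from NK cells, but T cells also display them, mostly after activation or repeated antigen contact. Klrd1 encodes CD94, the chain that pairs with NKG2A, encoded by Klrc1, to form an inhibitory receptor for the MHC class Ib molecule Qa-1. Klrg1 encodes an inhibitory receptor for cadherins that marks terminally differentiated effector T cells. Klrk1 encodes NKG2D, an activating receptor for stress-induced ligands, which signals through the adaptor DAP10, encoded by Hcst. Klrb1c encodes NK1.1 and Ncr1 encodes NKp46, both activating receptors of NK cells that couple to Fc receptor gamma chains. Nkg7 encodes a membrane protein of cytotoxic granules, and Ctsw encodes cathepsin W, a cysteine protease of cytotoxic lymphocytes.

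Library totals ranged from 31952873 to 40638685 counts, and a count of 3 corresponded to between 0.0713 and 0.101 CPM. CPM is the usual library-size-scaled count, computed here on totals adjusted by the trimmed mean of M-values (TMM). All 14 T cell marker genes were measured in every group, and their summed level lay between 4355 and 4597 CPM at 24 h and between 3369 and 3489 CPM at 48 h. The 13 NK cell markers summed to between 147 and 175 CPM, but most of that was Eomes, which effector T cells also express, at group means of 140 to 154 CPM. Of the other markers on that list, Gzma was at group means of 4.75 to 6.27 CPM. Itga2, the gene of the integrin CD49b, was at 1.17 ± 0.103 CPM (SD, n = 3) in control 24 h and 1.16 ± 0.124 CPM in shFabp7 24 h, and at 4.18 ± 0.392 and 4.23 ± 0.326 CPM in the same order at 48 h. Itga2 rose with time by 1.84 ± 0.18 beside control cells (log2, adjusted p = 8.0e-11) and 1.86 ± 0.19 beside shFabp7 cells (adjusted p = 9.8e-11), with no partner call, and its part in the time results of the 8 genes was not tested. At the low end, Klra8 had between 1 and 5 counts per group in all, Klra9 had 0 counts in both 48 h groups, and Khdc1a had 0 counts in 3 of the 4 groups. Fabp7 itself had 3, 1 and 1 counts in the control 48 h libraries and 0 in the other 9, at or under the limit of 3 counts, so its level could not be compared between groups. These are bulk libraries, so fewer cells of a type and less RNA per cell cannot be told apart in any result that follows.

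Compared per length, the 8 genes spanned a wide range. Per kilobase of exon, Nkg7 was at 73.2 ± 5.64 CPM (SD, n = 3) and Ctsw at 46.6 ± 2.31 CPM in the control partner group at 24 h. Klrg1, at 3.66 CPM per kilobase, and Klrd1, at 3.41, came next in that group. Klrc1, at 0.902, and Klrk1, at 0.697, were lower again. The place of Klrk1 rests on its exon length of 7183 bases, beside 1414 for Klrg1, 1281 for Klrd1 and 1984 for Klrc1. Without that division Klrk1 was at 5.01 CPM in the same group, beside 5.17 for Klrg1, 4.37 for Klrd1 and 1.79 for Klrc1. Ncr1, at 0.197, and Klrb1c, at 0.129 CPM per kilobase, were the scarcest, with 6 to 29 counts and 4 to 35 counts per library. The granule genes were therefore measured with at least 2009 counts in each library, while the fold changes of Ncr1 and Klrb1c carry wide errors. The Klrc genes and the Klrb1 genes are families of closely related copies, so reads shared between copies could be split or dropped in counting, and the values of Klrc1 and Klrb1c are uncertain to that extent. In the GRCm38 annotation Klrb1c also overlaps the predicted gene Gm44511 on the same strand over 155 bases, and Ctsw overlaps Fibp on the opposite strand over 9 bases.

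**Figure D1:**
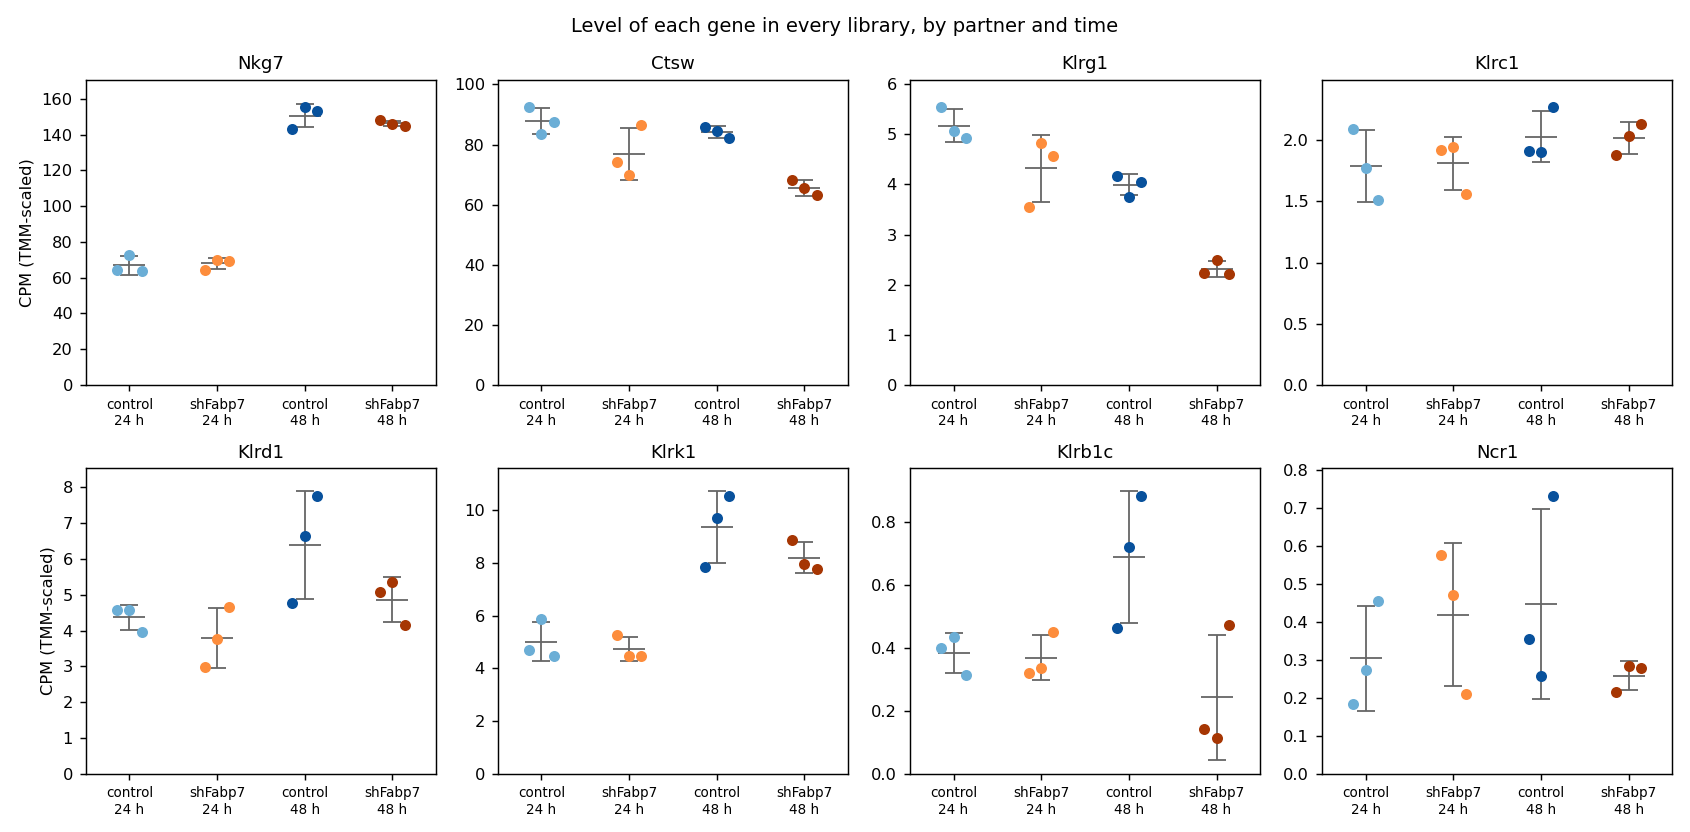
Level of each of the 8 genes in every library, in CPM on a linear axis that starts at 0, by partner and time; points are libraries, and the horizontal line and bar are the mean and SD of 3. Nkg7 and Klrk1 were higher at 48 h with both partners, whereas Klrg1 was lowest in the shFabp7 group at 48 h.

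The comparison of partners at 48 h asks whether the genes differed in T cells that had been with Res_shFabp7 cells rather than Res_ctrl cells. Of the 8 genes, 3 were lower with the shFabp7 partner and 0 were higher. Those that fell were Klrg1, to 0.579 of the control level, Klrb1c, to 0.350, and Ctsw, to 0.780. Among all genes tested 31.6% passed the same threshold (an adjusted p under 0.05), 11.6% as lower and 19.9% as higher. A share of 3 in 8 is near the 31.6%, so the number of calls does not set the 8 genes apart. The median log2 fold change of the 8 genes was -0.38, beside 0.01 over all genes tested. The 8 genes were chosen with earlier results of these data known, so this median and those given later are a description, not a test. Upper-quartile scaling changed the balance over all genes from 3380 higher and 1972 lower to 2125 higher and 3195 lower. Under that scaling 4 of the 8 genes were lower, because Klrd1 also passed.

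Klrg1, the inhibitory cadherin receptor, had the clearest difference among the receptors. Its level was 4.17, 3.76 and 4.05 CPM in the 3 control partner libraries at 48 h and 2.23, 2.49 and 2.22 CPM in the 3 shFabp7 partner libraries. Every shFabp7 library lay under every control library. The log2 fold change was -0.79 ± 0.15 (SE), with an adjusted p of 0.000147 in edgeR's quasi-likelihood test. The groups did not overlap for Klrg1 and Ctsw, which held for 44% of all genes tested. At 24 h Klrg1 was at 5.53, 5.07 and 4.92 CPM beside control cells and 3.56, 4.83 and 4.57 CPM beside shFabp7 cells. Those groups did not overlap either, which held for 27.5% of all genes tested, but the log2 fold change of -0.26 ± 0.15 missed the threshold (adjusted p = 0.274).

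With time, Klrg1 fell in both kinds of culture. From 24 to 48 h the log2 fold change was -0.37 ± 0.14 beside control cells (adjusted p = 0.0222) and -0.90 ± 0.16 beside shFabp7 cells (adjusted p = 5.8e-06). The fall with the control partner depended on the scaling and on single libraries. It was -0.18 with library totals alone (adjusted p = 0.264), and the adjusted p was 0.0951 with upper-quartile scaling, 0.0936 without control replicate 1 of 24 h and 0.0783 without control replicate 2 of 48 h. The difference between the partner effects at 48 h and 24 h was -0.53 ± 0.21 on the log2 scale for Klrg1, with an unadjusted p of 0.0181 and an adjusted p of 0.151. The order of the group means was control 24 h (5.17 CPM), shFabp7 24 h (4.32), control 48 h (3.99) and shFabp7 48 h (2.31). In that order the 2 middle groups were not compared directly, and the 2 groups of 24 h did not differ past the threshold.

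The transcripts of cadherins that Klrg1 binds were low in these libraries. Cdh1, which encodes E-cadherin, was at 6.35 ± 0.478 CPM (SD, n = 3) beside control cells and 4.90 ± 0.192 CPM beside shFabp7 cells at 24 h. At 48 h it was at 2.06 ± 0.290 CPM and 1.24 ± 0.269 CPM in the same order. The partner effect on Cdh1 was -0.37 ± 0.15 (log2, SE) at 24 h (adjusted p = 0.104) and -0.74 ± 0.19 at 48 h (adjusted p = 0.00279), and Cdh1 fell with time by 1.62 and by 1.99 on the log2 scale with the control and shFabp7 partners.

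Klrd1 and Klrc1 encode the chains of the CD94 and NKG2A receptor. At 48 h Klrd1 was at 4.77, 6.64 and 7.76 CPM beside control cells and 5.08, 5.35 and 4.16 CPM beside shFabp7 cells. Control replicate 1 lay inside the shFabp7 range, so the groups overlapped. The log2 fold change was -0.40 ± 0.16, with an adjusted p of 0.0578. Klrd1 passed the threshold with upper-quartile scaling (-0.48, adjusted p = 0.0216), with library totals (adjusted p = 0.0234), with no filter on low counts (adjusted p = 0.0200), with a stricter filter (adjusted p = 0.0443), with only the compared groups in the fit (adjusted p = 0.0430) and without control replicate 1 (-0.57, adjusted p = 0.00491). With DESeq2 and with RLE scaling 3 of the 8 genes were lower, the same number as in the reported fit, where Klrd1 had no call. Klrd1 passed in none of the other 5 fits with a library left out, and was -0.23 without control replicate 3 (adjusted p = 0.364).

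Klrd1 rose with time where the partner was the control. Its levels at 24 h were 4.58, 4.57 and 3.95 CPM beside control cells and 2.98, 3.76 and 4.66 CPM beside shFabp7 cells. Against these, all 3 control libraries were higher at 48 h, with a log2 fold change of 0.55 ± 0.16 (adjusted p = 0.00354). A lack of overlap in that comparison held for 68.6% of all genes tested. Without control replicate 3 of 48 h, which had the highest value, the adjusted p was 0.0552. With the shFabp7 partner the change over time was 0.35 ± 0.17 (adjusted p = 0.0687), and it passed with library totals (adjusted p = 0.0123), with upper-quartile scaling (0.0448) and without shFabp7 replicate 3 of 24 h (0.0206) or of 48 h (0.0339), but was 0.17 without shFabp7 replicate 1 of 24 h (adjusted p = 0.414). The partner effect at 24 h was -0.20 ± 0.17 (adjusted p = 0.521), and the difference between the partner effects was -0.20 ± 0.24 (adjusted p = 0.723).

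Klrc1 showed no call in any of the 5 comparisons. Its levels ranged only from 1.51 to 2.27 CPM over the 12 libraries, or 52 to 90 counts. The group means were 1.79 ± 0.292, 1.81 ± 0.215, 2.03 ± 0.208 and 2.02 ± 0.130 CPM (SD, n = 3) in control 24 h, shFabp7 24 h, control 48 h and shFabp7 48 h, and neighbouring groups overlapped. The 95% interval of its partner effect at 48 h ran from -0.40 to 0.38 on the log2 scale. At 24 h it ran from -0.39 to 0.43, so a change within these limits is not shown to be absent.

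Klrc2, which encodes the activating partner NKG2C of CD94, was at 1.57, 1.07, 1.33 and 1.04 CPM (group means in the same order) and had no call. H2-T23, which encodes the Qa-1 heavy chain seen by CD94 receptors, was among the abundant transcripts, with group means of 461, 481, 312 and 298 CPM. H2-T23 fell with time by 0.56 beside control cells (adjusted p = 0.00147) and by 0.69 beside shFabp7 cells (adjusted p = 0.000364) on the log2 scale. Its partner effects were 0.06 ± 0.12 at 24 h (adjusted p = 0.804) and -0.06 ± 0.12 at 48 h (adjusted p = 0.738).

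Klrk1, the NKG2D receptor gene, was higher at 48 h than at 24 h with both partners. With the control partner its level was 4.70, 5.85 and 4.47 CPM at 24 h and 7.85, 9.70 and 10.5 CPM at 48 h. With the shFabp7 partner it was 5.26, 4.46 and 4.45 CPM at 24 h and 8.88, 7.95 and 7.76 CPM at 48 h. The 24 h and 48 h libraries did not overlap, which held for 68.6% of all genes tested beside control cells and 71.4% beside shFabp7 cells. Klrk1 rose by 0.90 ± 0.13 on the log2 scale with the control partner (adjusted p = 1.6e-07) and by 0.80 ± 0.13 beside shFabp7 cells (adjusted p = 2.6e-06). No partner effect passed for Klrk1, at -0.09 ± 0.14 at 24 h (adjusted p = 0.753) and -0.19 ± 0.12 at 48 h (adjusted p = 0.248, 95% interval -0.43 to 0.05).

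Hcst, the gene for the DAP10 adaptor of NKG2D, moved the other way with time. It was at 23.7 ± 0.759 CPM (SD, n = 3) in control 24 h and 21.6 ± 2.85 CPM in shFabp7 24 h. At 48 h it was at 17.9, 17.2 and 16.8 CPM beside control cells and 12.5, 14.4 and 13.6 CPM beside shFabp7 cells. The groups did not overlap, as for 44% of all genes tested. At that time Hcst fell beside shFabp7 cells (log2 fold change -0.36 ± 0.09, adjusted p = 0.00160). It also fell with time, by 0.46 beside control cells (adjusted p = 1.2e-05) and by 0.68 beside shFabp7 cells (adjusted p = 2.1e-08).

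Among the ligand genes of NKG2D, Ulbp1, which encodes MULT1, was at 29.0 ± 1.39 CPM and 29.7 ± 3.20 CPM (SD, n = 3) at 24 h with the control and shFabp7 partners. At 48 h it was at 148 ± 12.3 CPM and 155 ± 6.34 CPM. Ulbp1 rose with time by 2.35 ± 0.07 (log2, adjusted p = 6.9e-24) and 2.38 ± 0.07 (adjusted p = 5.5e-24), and neither partner effect passed. H60b, another NKG2D ligand gene, rose with time by 1.33 and 1.20 on the log2 scale (adjusted p = 4.6e-11 and 1.1e-09), and its partner effect at 48 h was -0.27 ± 0.12 (adjusted p = 0.0842). The symbols Raet1a, Raet1b, Raet1c and H60a had no entry and were not analysed here.

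Klrb1c, the NK1.1 gene, rests on few counts. At 48 h it had 17, 28 and 35 counts with the control partner and 6, 4 and 17 counts with the shFabp7 partner. In CPM these were 0.463, 0.720 and 0.881 against 0.143, 0.113 and 0.471, so shFabp7 replicate 3 lay just above the lowest control library and the groups overlapped. The log2 fold change was -1.51 ± 0.46 (adjusted p = 0.0106). The call did not hold without control replicate 3 (adjusted p = 0.0701) or when shFabp7 replicate 1 (0.0757) or 2 (0.0775) was left out, and without shFabp7 replicate 3 the log2 fold change was -2.39. At 24 h Klrb1c had 13, 16 and 11 counts with the control partner and 10, 10 and 15 counts with the shFabp7 partner, a log2 fold change of -0.05 ± 0.48 (adjusted p = 0.967).

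Over time Klrb1c passed with neither partner. The log2 fold change beside control cells was 0.84 ± 0.43 (adjusted p = 0.0845). There the 3 libraries of 48 h were all above those of 24 h, and 68.6% of all genes tested had no overlap. Beside shFabp7 cells the log2 fold change of Klrb1c was -0.62 ± 0.51 (adjusted p = 0.285). It passed with the control partner under library totals (1.04, adjusted p = 0.0355) and without control replicate 1 of 48 h (adjusted p = 0.0494). Beside shFabp7 cells it passed without shFabp7 replicate 3 of 48 h (-1.50, adjusted p = 0.0275). The difference between its partner effects at 48 h and 24 h was -1.47 ± 0.67, with an unadjusted p of 0.0352 and an adjusted p of 0.218.

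Ncr1, the NKp46 gene, was as scarce. It had 6, 10 and 16 counts in control 24 h, 18, 14 and 7 in shFabp7 24 h, 13, 10 and 29 in control 48 h, and 9, 10 and 10 in shFabp7 48 h. Every group overlapped its neighbours. The partner effect was 0.44 ± 0.50 at 24 h (adjusted p = 0.642) and -0.80 ± 0.49 at 48 h (adjusted p = 0.232), and its 95% interval at 48 h ran from -1.77 to 0.17. Without control replicate 3 of 48 h, which had 29 counts, the effect at 48 h was -0.25 (adjusted p = 0.803), and it reached -1.08 without control replicate 2. The effect at 24 h ran from 0.15 to 0.87 with a library left out. With so few counts the interval at 48 h is wide, so the lack of a call does not show that a difference is absent.

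Tyrobp and Fcer1g, which encode signalling chains of these receptors, were also scarce, whereas Cd247 and Hcst, also signalling chains, had group means of 236 to 345 and 13.5 to 23.7 CPM. Tyrobp, the gene for the DAP12 adaptor, had group means of 0.961, 0.932, 1.93 and 0.996 CPM in control 24 h, shFabp7 24 h, control 48 h and shFabp7 48 h. Its change over time was 1.01 ± 0.27 beside control cells (log2, adjusted p = 0.00137) and 0.09 ± 0.29 beside shFabp7 cells (adjusted p = 0.795). The difference between these changes was -0.92 ± 0.40 (adjusted p = 0.195) and did not pass. Tyrobp was lower at 48 h with the shFabp7 partner (-0.95 ± 0.27, adjusted p = 0.00578). Fcer1g, the Fc receptor gamma chain gene, was lower with the shFabp7 partner at 48 h (-0.70 ± 0.23, adjusted p = 0.0166), a call lost without control replicate 1 or without shFabp7 replicate 1 of that time. Of the 7 neutrophil markers 4 were tested, and 2 of them, S100a8 (-2.24 ± 0.40, adjusted p = 3.9e-05) and S100a9 (-1.41 ± 0.32, adjusted p = 0.00119), were lower in the same comparison and 0 higher. At 24 h 1 was lower, S100a9, beside 4.65% of all genes. That call was lost in 5 of 6 cases with a library left out (adjusted p up to 0.163). S100a8 was at 1.14 ± 0.384 CPM (SD, n = 3) beside control cells and 0.241 ± 0.0452 CPM beside shFabp7 cells at 48 h. The 7 neutrophil markers summed to 3.32 to 8.48 CPM beside control cells and 1.95 to 3.58 CPM beside shFabp7 cells at 48 h, ranges that overlap, and at 24 h to 6.36 to 11.4 and 6.47 to 8.56 CPM. The NK marker list had 3 of 9 tested genes lower and 0 higher at 48 h, namely Klrb1c, Tyrobp and Fcer1g. In that comparison 31.6% of all genes passed, 11.6% as lower. The part of either cell type in the Klrb1c, Tyrobp and Fcer1g results was not tested.

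**Figure D2:**
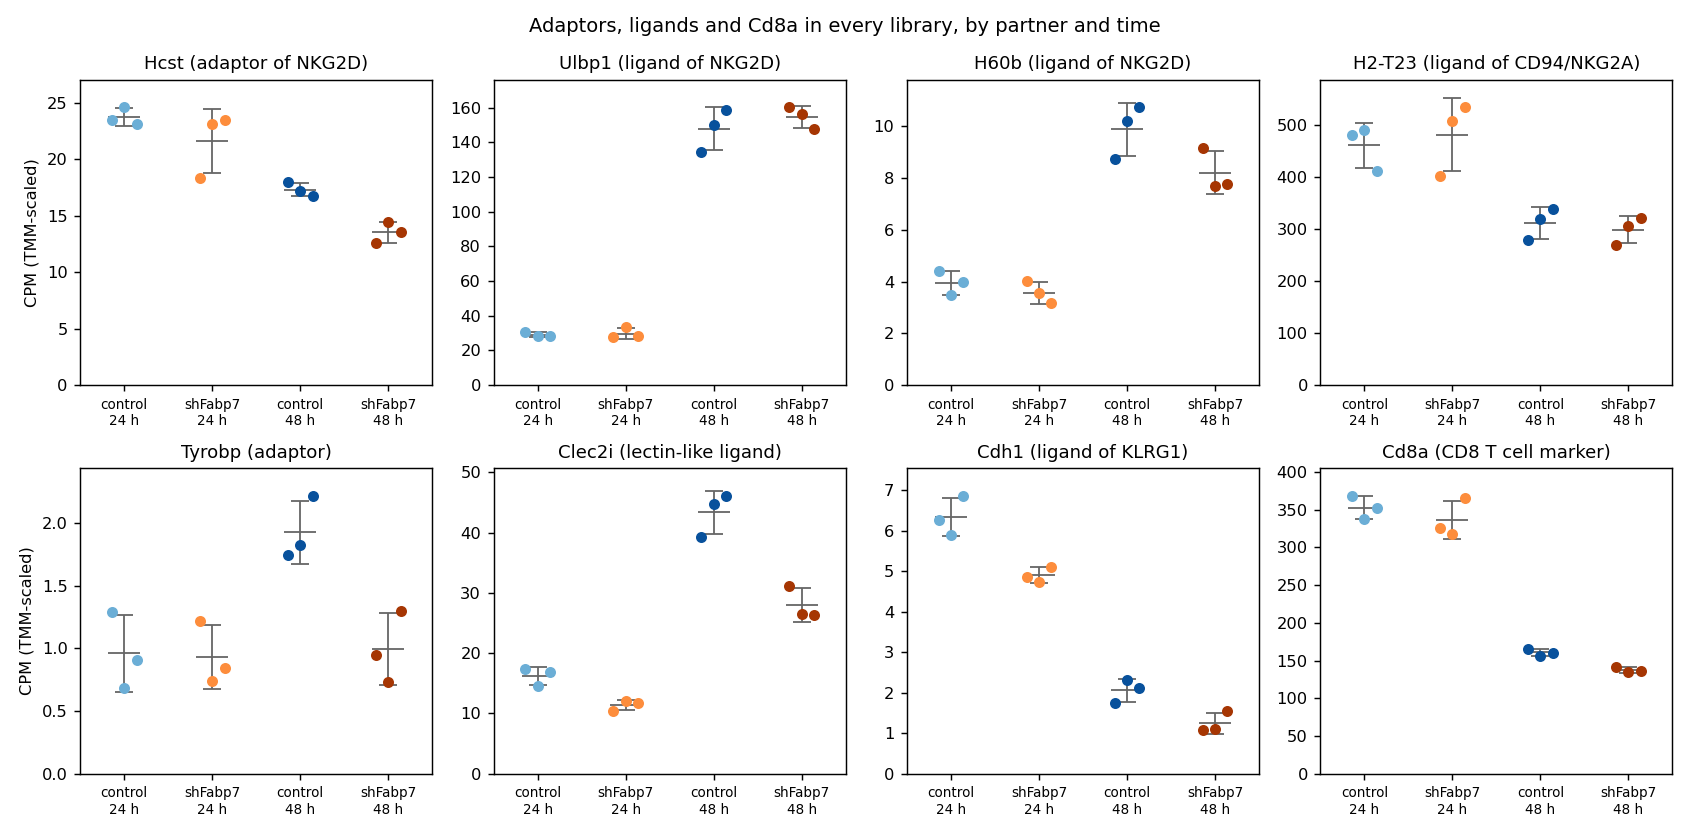
Levels of adaptor and ligand genes of the receptors, and of Cd8a, in every library, in CPM on linear axes that start at 0, by partner and time; points are libraries, and the line and bar are the mean and SD of 3. Ulbp1 rose from a mean of 29.0 CPM at 24 h to 148 CPM at 48 h with the control partner, while Hcst was lowest in the shFabp7 group at 48 h, at 12.5 to 14.4 CPM.

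Nkg7, the granule membrane gene, was the most abundant of the 8 per length and rose with time with both partners. With the control partner it was at 64.4, 72.8 and 63.5 CPM at 24 h and 143, 155 and 153 CPM at 48 h. With the shFabp7 partner it was at 64.4, 70.2 and 69.4 CPM at 24 h and 148, 146 and 145 CPM at 48 h. Each library of 48 h was above each library of 24 h, while the partners overlapped at both times. The rise was 1.17 ± 0.06 on the log2 scale with the control partner (adjusted p = 6.1e-19) and 1.10 ± 0.06 beside shFabp7 cells (adjusted p = 3.4e-18). The partner effect on Nkg7 was 0.02 ± 0.06 at 24 h (adjusted p = 0.849, 95% interval -0.09 to 0.13) and -0.04 ± 0.05 at 48 h (adjusted p = 0.604, 95% interval -0.15 to 0.06).

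Ctsw, the cathepsin W gene, was lower with the shFabp7 partner. At 48 h it was at 85.9, 84.6 and 82.0 CPM beside control cells and 68.2, 65.4 and 63.1 CPM beside shFabp7 cells. The groups were apart by more than the spread within either. The log2 fold change was -0.36 ± 0.06 (adjusted p = 2.4e-05), and it stayed between -0.39 and -0.33 when each library was left out. At 24 h Ctsw was at 92.3, 83.6 and 87.7 CPM beside control cells and 74.3, 69.7 and 86.4 CPM beside shFabp7 cells. There shFabp7 replicate 3 lay inside the control range, so the groups overlapped.

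At 24 h Ctsw was the only member of the 8 to pass, at -0.19 ± 0.06 (adjusted p = 0.0395), beside 10.9% of all genes tested, 4.65% as lower and 6.22% as higher. This call was fragile. It was lost with DESeq2 (adjusted p = 0.0874), with RLE scaling (0.0717), with no filter on low counts (0.0542) and with only the compared groups in the fit (0.0501). It was also lost when control replicate 1 (adjusted p = 0.247) or 3 (0.114), or shFabp7 replicate 1 (0.223) or 2 (0.36), was left out. The median log2 fold change of the 8 genes at 24 h was -0.07, beside -0.0041 over all genes tested. Over all genes, 1054 were higher and 788 lower at 24 h, and the split was 1581 and 619 with RLE scaling and 604 and 1214 with library totals.

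Cd8a, which encodes a chain of the CD8 co-receptor of most cytotoxic T cells, was at 161 ± 4.43 CPM (SD, n = 3) beside control cells and 138 ± 3.44 CPM beside shFabp7 cells at 48 h. It fell with the shFabp7 partner by 0.23 ± 0.05 on the log2 scale (adjusted p = 0.00143), alongside Ctsw and Klrg1, and with time by 1.13 and 1.29. Cd8b1 gave -0.13 ± 0.05 at 48 h (adjusted p = 0.0496), and lost its call when any 1 of the 6 libraries was left out. Of the 14 T cell markers 2 were higher and 5 lower at 48 h, beside 19.9% and 11.6% of all genes. At 24 h 1 was higher and 0 lower, beside 6.22% and 4.65% of all genes. The part of the share of CD8 T cells in the Ctsw and Klrg1 results was not tested.

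**Figure D3:**
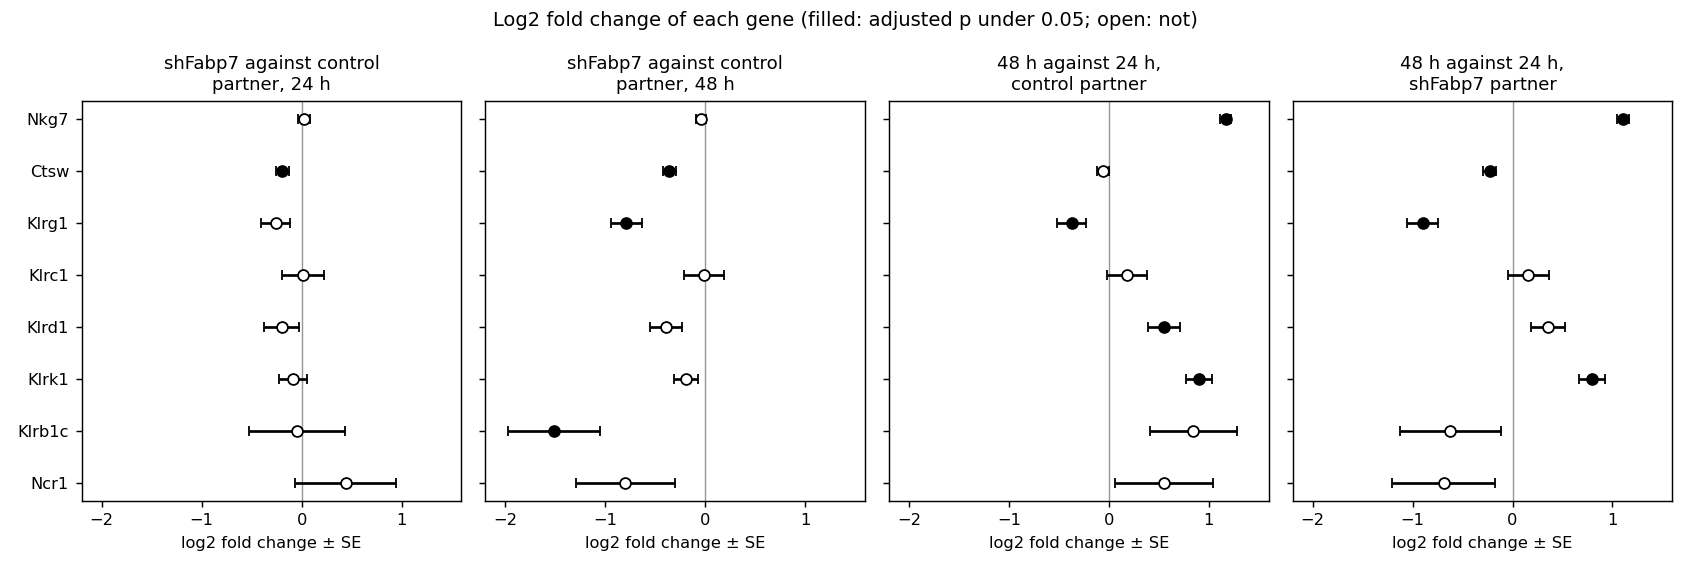
Log2 fold changes of the 8 genes in the 2 partner comparisons and the 2 time comparisons, with SE as horizontal bars, filled points where the adjusted p was under 0.05 and open points elsewhere. Nkg7, Klrk1, Klrd1 and Klrc1 sit to the right of 0 in both time comparisons, with filled points in both for Nkg7 and Klrk1 alone. In the partner comparison at 48 h the filled points, Klrg1, Klrb1c and Ctsw, sit to the left of 0. Klrc1 (-0.01 ± 0.20) and Nkg7 (-0.04 ± 0.05) lie within an SE of 0 there.

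Over time the 8 genes divided. With the control partner 3 rose (Nkg7, Klrk1 and Klrd1) and 1 fell (Klrg1), beside 67.7% of all genes tested that passed, 35.8% as higher and 32% as lower. With the shFabp7 partner 2 rose (Nkg7 and Klrk1) and 2 fell (Klrg1 and Ctsw), beside 66.1% of all genes, 35.9% as higher and 30.2% as lower. A share of 4 in 8 is under these backgrounds, so a call over time does not set the 8 genes apart. The fall of Ctsw with the shFabp7 partner was -0.23 ± 0.06 (adjusted p = 0.00166), but it was -0.08 with library totals (adjusted p = 0.262). Its change with the control partner was -0.06 ± 0.06 (adjusted p = 0.376). Library totals moved the median of all genes by 0.19 beside control cells and 0.15 beside shFabp7 cells on the log2 scale, and upper-quartile scaling moved it by 0.10 beside control cells. With library totals the split over all genes went from 6063 higher and 5415 lower to 7746 and 3781 with the control partner, and from 6085 and 5122 to 7483 and 3789 with the shFabp7 partner. The 2 time comparisons share no libraries with each other, but each shares 3 libraries with each partner comparison.

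The test of whether the partner effect differed between the times called 0 of the 8 genes, beside 5.6% of all genes tested, 1.17% as lower and 4.43% as higher. Klrg1 and Klrb1c had an unadjusted p under 0.05 in edgeR. DESeq2 also called 0 of the 8. So the larger effects on Klrg1, Klrb1c and Ctsw at 48 h are not shown to differ from those at 24 h. The median difference over the 8 genes was -0.18, beside 0.04 over all genes. Over all genes 750 were higher and 199 lower, a split that was 341 and 356 with upper-quartile scaling.

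**Figure D4:**
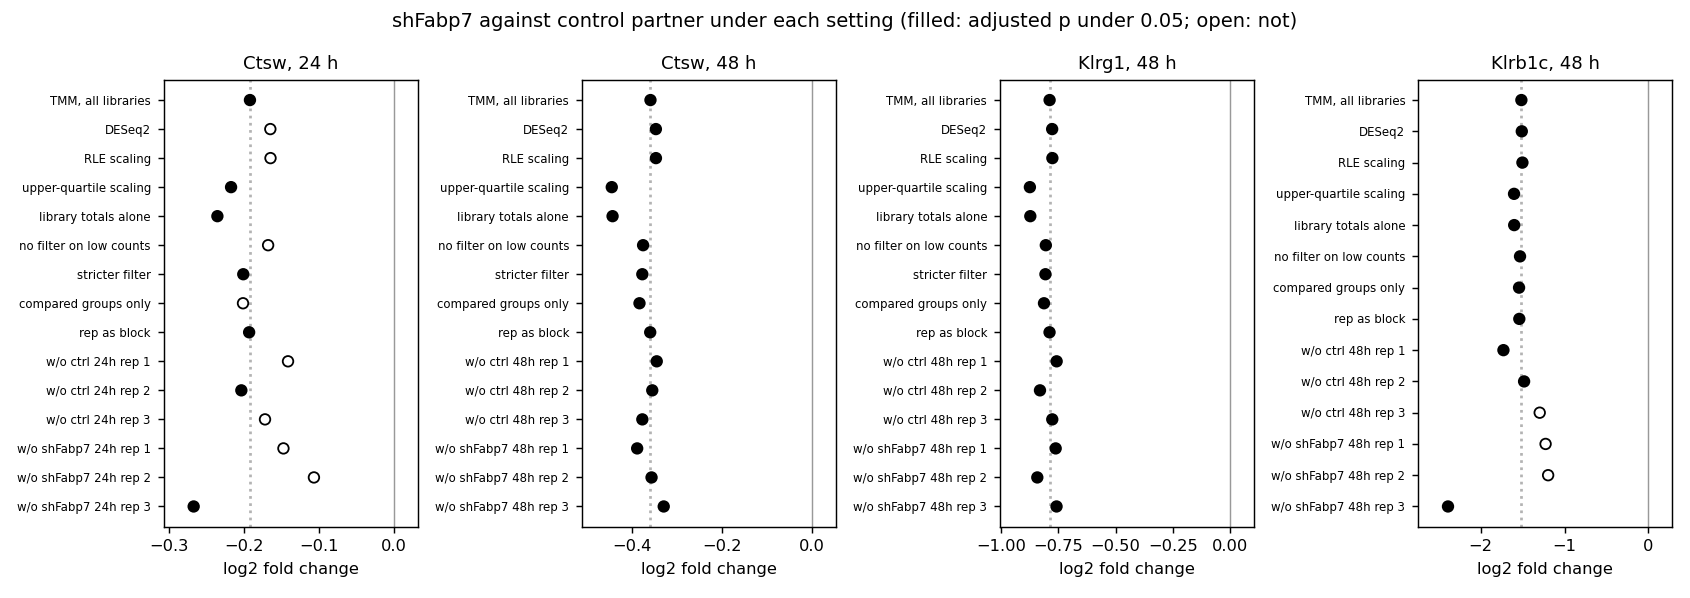
Log2 fold change in the partner comparison for Ctsw at 24 h and 48 h and for Klrg1 and Klrb1c at 48 h, under each processing setting and with each library left out; filled points have an adjusted p under 0.05, and the dotted line is the reported value. At 48 h the values of Klrg1 stay between -0.84 and -0.76 and those of Ctsw between -0.39 and -0.33 when each library is left out, whereas Klrb1c reaches -2.39 without shFabp7 replicate 3.

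The sequences just before the transcription starts are shown for 3 of the genes, since Nkg7 and Klrk1 rose together with time while Klrb1c fell with the shFabp7 partner at 48 h. They are the 250 bases before the start in RefSeq's mouse GRCm38.p6, read 5′ to 3′ on the gene's strand, and the table holds a promoter for 5 of the 8 genes (Klrb1c, Klrk1, Klrc1, Ncr1 and Nkg7). Capitals mark matches to 4 motifs searched on both strands, which were chosen with these sequences in view: the RUNX core TGTGGT (or ACCACA), the T-box core GGTGTGA, the STAT site TTCNNNGAA and the AP-1 site TGANTCA. The promoter of Nkg7 is chr7:43436888-43437137 on the plus strand, that of Klrk1 is chr6:129623865-129624114 on the minus strand, and that of Klrb1c is chr6:128788642-128788891 on the minus strand.
Nkg7: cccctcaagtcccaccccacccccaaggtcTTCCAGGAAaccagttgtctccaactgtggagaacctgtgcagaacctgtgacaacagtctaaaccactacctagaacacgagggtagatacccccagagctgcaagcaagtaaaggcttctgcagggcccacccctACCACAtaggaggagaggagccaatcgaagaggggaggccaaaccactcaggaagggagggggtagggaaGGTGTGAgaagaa
Klrk1: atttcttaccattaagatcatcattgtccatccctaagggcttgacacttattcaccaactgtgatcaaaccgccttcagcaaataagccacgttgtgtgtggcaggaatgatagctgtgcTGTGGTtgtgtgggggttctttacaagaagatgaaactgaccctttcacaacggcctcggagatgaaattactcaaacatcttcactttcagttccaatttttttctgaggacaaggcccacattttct
Klrb1c: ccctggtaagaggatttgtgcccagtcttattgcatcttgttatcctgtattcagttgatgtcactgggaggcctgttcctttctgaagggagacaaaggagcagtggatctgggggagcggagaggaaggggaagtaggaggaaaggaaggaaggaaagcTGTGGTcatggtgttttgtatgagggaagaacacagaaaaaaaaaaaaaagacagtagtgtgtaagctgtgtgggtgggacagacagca

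In Nkg7 the RUNX core begins 83 bases before the start, the T-box core 13 bases and the STAT site 220 bases before it, and none of the 3 overlap. In Klrk1 the RUNX core begins 129 bases and in Klrb1c 89 bases before the start. All 6 promoters of the 5 genes held the RUNX core, Ncr1 having 2 overlapping ones for its 2 starts, beside 14% of the 32851 promoters of that length in the table. The T-box core was in 3.33% of the promoters, the STAT site in 7.02% and the AP-1 site in 6.75%, and among the 5 genes only Nkg7 held the first of these and the STAT site. No AP-1 site was found in the promoters of the 5 genes. These matches are a description of letters in the window, which these data do not test for binding.

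As a description over the 12 libraries, the pattern of each of 6 genes was compared with that of 11508 others of at least 1 CPM, leaving out Klrb1c and Ncr1, which were under that level. All points share the large difference between the times and the scaling of each library. Nkg7 was most like Oip5 (Pearson r = 0.997), Serpinb6b (0.996) and Cdkn3 (0.996). Klrk1 was most like Gcfc2 (0.981), Ipp (0.981) and Pfkfb1 (0.980). The patterns nearest to Klrg1 were those of Slc35b3 (0.977), Mir142hg (0.971) and Slamf6 (0.957). For Ctsw they were Pacsin1 (0.937), Usp3 (0.936) and Smpd5 (0.935), and for Klrd1 they were Paip2 (0.946), Kdsr (0.942) and Fam8a1 (0.931). Klrc1, which barely moved, had its nearest at 0.874 (Srp54a), 0.842 (Zfp456) and 0.806 (Galnt11). Among the members themselves the pair Klrk1 and Nkg7 was closest (r = 0.951 over 12 libraries), then Klrg1 and Ctsw (0.823), while Klrg1 and Nkg7 ran opposite (-0.688).

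Other lectin-like receptor genes of the NK complex were mostly too scarce to test. Of 20 listed, 7 were tested, and 0 passed in either partner comparison, beside 10.9% of all genes at 24 h and 31.6% at 48 h. Klra5, an Ly49 family gene, rose with time by 0.69 ± 0.22 (log2, adjusted p = 0.00581) beside control cells and 0.59 ± 0.23 (adjusted p = 0.0218) beside shFabp7 cells. The second call was lost without replicate 3 of either shFabp7 group (adjusted p up to 0.224), and the first held with each library left out. Klra17, another of that family, rose with time with the shFabp7 partner (adjusted p = 0.00170), from 2 counts over the 3 libraries of 24 h to 35 over those of 48 h, too few for a fold.

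Ligand genes of these receptors gave 1 lower and 0 higher of 6 tested at 24 h and 2 lower and 0 higher at 48 h. Over time 3 were higher and 3 lower with each partner. Of all genes 10.9% passed at 24 h, 31.6% at 48 h, and 67.7% (control) and 66.1% (shFabp7) over time. With upper-quartile scaling 4 ligand genes were lower at 48 h. The list held 16 genes, 12 of them in the table. Clec2i, which encodes a lectin-like ligand of NKR-P1 receptors, fell with the shFabp7 partner at both times, by -0.51 ± 0.09 at 24 h (adjusted p = 6.0e-04) and -0.63 ± 0.08 at 48 h (adjusted p = 1.4e-07). It was at 17.4, 14.5 and 16.8 CPM in control 24 h and 10.5, 12.1 and 11.7 CPM in shFabp7 24 h. At 48 h it was at 39.4, 44.8 and 46.1 CPM beside control cells and 31.2, 26.5 and 26.3 CPM beside shFabp7 cells. The partners did not overlap at either time, which held for 27.5% of all genes tested at 24 h and 44% at 48 h. Clec2d, the gene of another such ligand, fell with time by 0.95 and 1.11 on the log2 scale, and had no partner call.

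Of 11 tested genes for receptor adaptors and signalling, 0 passed at 24 h, beside 10.9% of all genes. At 48 h 3 were higher and 4 lower with the shFabp7 partner, beside 19.9% and 11.6% of all genes. The lower ones included Hcst, Tyrobp, Fcer1g and Cd247, the CD3 zeta chain gene, at -0.17 ± 0.05 (adjusted p = 0.0112), which did not pass without shFabp7 replicate 1 of 48 h (adjusted p = 0.104). With upper-quartile scaling 0 were higher and 4 lower. Ptpn11, which encodes the phosphatase SHP2, was higher by 0.18 ± 0.05 (adjusted p = 0.00396), but passed neither with upper-quartile scaling (0.10, adjusted p = 0.132) nor with library totals (0.10, adjusted p = 0.117). Over time 3 rose and 7 fell with the control partner, where 67.7% of all genes passed. With the shFabp7 partner 2 rose and 5 fell, where 66.1% passed. Library totals gave 4 higher and 3 lower in the first of these and 2 higher and 4 lower in the other. Sh2d1a, the gene of the SAP adaptor, rose by 0.86 ± 0.08 (adjusted p = 8.7e-12) and 1.01 ± 0.08 (adjusted p = 2.5e-13).

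Other receptors shared by NK and cytotoxic T cells went in both directions. Of 15 tested, 1 was higher and 4 lower with the shFabp7 partner at 24 h, beside 6.22% and 4.65% of all genes. At 48 h 5 were higher and 5 lower, beside 19.9% and 11.6% of all genes. Il18r1 and Il18rap, which encode the chains of the IL-18 receptor, fell at both times, by -0.38 ± 0.07 and -0.39 ± 0.07 at 24 h (adjusted p = 0.000625 and 0.000927) and by -0.61 ± 0.07 and -0.47 ± 0.07 at 48 h (adjusted p = 5.4e-08 and 4.9e-06). Slamf6, a SLAM family receptor gene, fell by -0.22 ± 0.05 at 24 h (adjusted p = 0.00646) and -0.48 ± 0.05 at 48 h (adjusted p = 2.3e-08), the call at 24 h being lost without control replicate 1 or without shFabp7 replicate 1. In contrast Il12rb2, the gene of an IL-12 receptor chain, was higher at 48 h by 0.70 ± 0.05 (adjusted p = 4.7e-12). Over time 6 rose and 4 fell with the control partner, where 67.7% of all genes passed. With the shFabp7 partner 9 rose and 4 fell, where 66.1% passed. Il12rb2 led the rises, at 2.28 and 3.07 on the log2 scale in that order. The counts with the control partner were 10 higher and 1 lower with library totals.

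Granule and killing genes other than Nkg7 and Ctsw gave 6 higher and 0 lower of 18 tested with the shFabp7 partner at 48 h. Those 6 calls in 18 are near the 31.6% of all genes that passed, 19.9% as higher and 11.6% as lower. At 24 h 1 was higher and 0 lower, beside 6.22% and 4.65% of all genes. Upper-quartile scaling gave 4 higher and 1 lower at 48 h. Gzmb, the granzyme B gene, rose by 0.25 at 24 h (adjusted p = 0.00317) and 0.44 at 48 h (adjusted p = 8.6e-08), from 1401 ± 29.4 to 1901 ± 46.3 CPM (SD) at the later time. Prf1, the perforin gene, was higher at 48 h by 0.57 (adjusted p = 1.5e-08), at 55.3 ± 3.03 CPM beside control cells and 82.1 ± 5.32 CPM beside shFabp7 cells. Over time 9 rose and 5 fell with the control partner, where 67.7% of all genes passed. With the shFabp7 partner 11 rose and 5 fell, where 66.1% passed, and Gzmb rose by 2.98 and 3.17 in that order. Library totals gave 10 higher and 1 lower, and 13 higher and 3 lower, in the same order. Beside these, Ctsw was lower and Nkg7 had no call in the partner comparison at 48 h.

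Transcription factors of the cytotoxic lineages gave 6 higher and 0 lower of 15 tested with the shFabp7 partner at 48 h. Of all genes 19.9% were higher and 11.6% lower there. At 24 h 2 were higher and 0 lower, beside 6.22% and 4.65% of all genes. Upper-quartile scaling gave 5 higher and 4 lower at 48 h, and library totals gave 0 higher and 1 lower at 24 h. Tbx21, the T-bet gene, was at 132 ± 12.9 CPM (SD, n = 3) beside control cells and 165 ± 6.70 CPM beside shFabp7 cells at 48 h. Its partner effect was 0.32 on the log2 scale (adjusted p = 3.8e-05), while it fell with time by 0.63 and 0.41. Nfil3, a factor needed for NK cell development, was higher at 48 h by 0.49, and Gata3 by 0.35. Over time 6 rose and 7 fell with the control partner, where 67.7% of all genes passed. With the shFabp7 partner 5 rose and 5 fell, where 66.1% passed. Library totals gave 8 higher and 4 lower, and 7 higher and 5 lower.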

How the data were processed

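Spleen T cell RNA was sequenced in 12 libraries (4 groups of 3), and the deposited values are raw gene counts in a table keyed by symbol. The submitters' processing notes name CASAVA 1.8.2, TopHat2 2.0.13, HTSeq 0.6.1p1 and the build GRCm39. The order in which they were run, their settings, the strand mode and the annotation release are not given in the sources used here. Each column was matched to its sample by the library name in the description.

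Counts were kept for genes that passed edgeR's filterByExpr (minimum count 10, minimum total 15), scaled by TMM and tested in 1 quasi-likelihood fit over the 12 libraries, with R 4.3.3, edgeR 4.0.16 and limma 3.58.1. The contrasts were the partner effect at 24 h and 48 h, their difference, and 48 h against 24 h with each partner. P-values were adjusted by the Benjamini-Hochberg method over 16945 genes, with a threshold of 0.05. Standard errors are the log2 fold change divided by the square root of F, and 95% intervals follow from them. The edgeR fit with the reported filter and TMM scaling was tested on simulated counts for each contrast, and the other steps were not. Replicate pairs of a group differed by more than counting noise, with a chi-square per degree of freedom of 4.34 to 14.2. Same-numbered libraries of different groups did not deviate together (correlations -0.097 to 0.025 over 12 pairs), so the fit reported has no block. Alternatives were DESeq2 1.42.0, RLE, upper-quartile and library-total scaling, other filters, only the compared groups, a replicate block, and each library left out.

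The 8 genes and all gene lists were chosen with earlier results of these data known. Of each list the text names up to 4 genes with the smallest adjusted p in a comparison, the direct partners of the 8 genes, and the 3 genes most like each of the 6 with a mean of at least 1 CPM (not Klrb1c or Ncr1) by log2(CPM + 0.5). Marker genes, and genes whose partner effect differed between the times, were named after their values were seen. Lists covered receptors, ligands, adaptors, transcription factors, granule genes, cathepsins and markers of T, NK, gamma-delta, B, monocyte, dendritic and neutrophil cells. Exon lengths and overlaps come from GENCODE on GRCm38, which is not the build of the counts, so no coordinates were joined to them. Intervals cover the spread between these libraries only.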

Additional observations from a re-analysis of the deposited data

Results flagged for a closer look

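By edgeR's test of the difference itself, the partner effects at 24 and 48 h differed for 0 of the 8 receptor and granule genes. On the related lists 10 genes passed. These were 5 of 15 tested other receptors, 1 of 15 transcription factors, 2 of 18 granule genes, 1 of 10 cathepsins and 1 of 14 T cell markers. Among all genes tested 5.6% passed, 4.43% as higher and 1.17% as lower, and the share over the lists together was not computed. For 8 of the 10 the effect of the shFabp7 partner was higher at 48 h than at 24 h, as for 750 of the 949 called over all genes. Il12rb2 differed by 0.79 on the log2 scale (-0.09 at 24 h and 0.70 at 48 h, adjusted p = 6.8e-08). Serpinb9, a granzyme B inhibitor gene, differed by 0.47 (0.02 and 0.49, adjusted p = 0.000354). Prf1 differed by 0.40 (0.17 and 0.57, adjusted p = 0.00762). Il2rb, an IL-2 and IL-15 receptor chain gene, differed by 0.33 (-0.09 and 0.24, adjusted p = 0.00809). Nfil3 differed by 0.31 (adjusted p = 0.0357), Ctsz by 0.30 (adjusted p = 0.0176), Tigit by 0.26 (adjusted p = 0.0342) and Cd28 by 0.26 (adjusted p = 0.0360). In the other direction, Crtam differed by -0.36 (0.10 and -0.26, adjusted p = 0.0101) and Slamf6 by -0.26 (-0.22 and -0.48, adjusted p = 0.0401). The calls of Tigit, Nfil3 and Cd28 were each lost with RLE, upper-quartile and library-total scaling, that of Nfil3 also with DESeq2, and that of Ctsz with upper-quartile scaling. Leaving out single libraries ended the call for Tigit in 11 of 12 cases, Cd28 in 10, Nfil3 in 9, Slamf6 in 7, Ctsz in 5, and Prf1 and Il2rb in 3 each. Those of Il12rb2, Serpinb9 and Crtam held in all 12.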

How the results depend on the processing

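Over 590 log2 fold changes of the 8 genes under alternatives, 539 kept their direction and side of the threshold, 17 no longer passed, 13 newly passed and 21 changed sign, all of them without a call. At 24 h the 1 gene called became 0 with DESeq2, RLE scaling, no filter on low counts and only the compared groups, and 0 to 1 with each library left out. The number of genes called over the whole table at 24 h ran from 949 (without control replicate 1; 1045 without shFabp7 replicate 1) to 2525, against 1842. For the difference between the partner effects it ran from 319 (without shFabp7 replicate 2 of 24 h) to 1680 (without control replicate 1 of 48 h), against 949, and moved by over 1.5 times without any other library except control replicate 1 of 24 h.

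Sign changes at 24 h were for Klrc1 with upper-quartile scaling (-0.0080) and library totals (-0.026) and for Nkg7 with the same (-0.0016 and -0.019). At 48 h Klrc1 changed sign with DESeq2 (0.0017) and RLE scaling (0.0017). Ctsw over time with the control partner was 0.039 with upper-quartile scaling and 0.13 with library totals. With each library left out, the partner effect at 24 h ran from -0.20 to 0.081 for Klrb1c, -0.15 to 0.065 for Klrk1 and -0.071 to 0.15 for Klrc1. For Klrc1 it ran from -0.054 to 0.079 at 48 h, and the difference between times from -0.19 to 0.062. Ncr1 over time with the control partner ran from -0.0034 to 0.97. The cause of these changes was not tested.

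With the replicate number as a block, which no source ties to a shared origin, the genes called were 1777, 5195, 862, 11388 and 11120 in the partner effects at 24 h and 48 h, their difference, and the time comparisons with control and shFabp7 partner. Of the 8 genes, 1, 3, 0, 4 and 4 were called, as without the block. Depth limits Klrb1c and Ncr1, at 4 to 35 and 6 to 29 counts per library, more than the other 6 genes.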

Other observations

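Cathepsin genes other than Ctsw went in both directions. Ctsc, counted with the granule genes and not here, was higher by 0.16 ± 0.06 at 48 h (adjusted p = 0.0243), a call lost without replicate 3 of either 48 h group and with upper-quartile scaling (0.08, adjusted p = 0.314) or library totals (0.08, adjusted p = 0.303). Of the 10 others listed and tested, 0 passed in the partner comparison at 24 h, beside 10.9% of all genes. At 48 h 1 was higher and 2 lower with the shFabp7 partner, beside 19.9% and 11.6% of all genes. Ctsz, which encodes cathepsin Z, was at 105 ± 5.36 CPM (SD, n = 3) with the control partner and 142 ± 0.525 CPM beside shFabp7 cells at 48 h, a log2 fold change of 0.43 ± 0.05 in edgeR (adjusted p = 2.4e-07). Ctsf, the cathepsin F gene, was at 9.17 ± 1.34 CPM and 7.21 ± 0.302 CPM in the same groups (-0.35 ± 0.12, adjusted p = 0.0286), a call lost without control replicate 3 or any 1 of the shFabp7 libraries of 48 h. Ctsk was lower by 1.12 (adjusted p = 0.0362), a call lost in 5 of 6 cases with a library left out and with DESeq2 (adjusted p = 0.0577). Over time 5 cathepsin genes rose and 3 fell with the control partner, where 67.7% of all genes passed. With the shFabp7 partner 5 rose and 4 fell, where 66.1% passed. Ctsb, the cathepsin B gene, rose from 159 ± 1.95 to 260 ± 10.8 CPM beside control cells (log2 fold change 0.71 ± 0.05, adjusted p = 1.2e-14), while Ctsw changed there by -0.06 ± 0.06 (adjusted p = 0.376). With upper-quartile scaling 1 cathepsin gene was higher and 5 were lower at 48 h.

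Of the 7 gamma-delta and NKT cell markers tested, Trgc2 and Trgc4, constant regions of the T cell receptor gamma chain, were lower with the shFabp7 partner at 48 h in edgeR. Over all genes 31.6% passed there, 11.6% as lower. Trgc4 fell by 0.57 on the log2 scale (adjusted p = 0.00398), a call kept with each of 6 libraries left out. Trgc2 fell by 0.42 (adjusted p = 0.0342), a call lost without control replicate 3 or any 1 of the shFabp7 libraries of 48 h (adjusted p up to 0.173). The summed level of the 7 was 32.3 to 33.1 CPM beside control cells and 30.5 to 33.2 CPM beside shFabp7 cells. B cell and dendritic cell markers had 0 calls in the partner comparison at 48 h. Monocyte markers had 1, Lyz2, which was lower. Its call was lost in 3 of 6 cases with a library left out (adjusted p up to 0.111).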
